A study of Homo sapiens with 8 samples.

Results

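The antisense RNAs, nearly all long noncoding, of breast cancer stem cells (CSCs) were taken as every row whose gene symbol ends in -AS and 1 digit, the name given to an RNA transcribed from the strand opposite a named gene. There were 143 such RNAs among the 12939 genes of each library, and 120 of them had a row for the sense gene, the symbol before the hyphen. RNA-Seq was done on 8 libraries of CSCs sorted for the brightest green fluorescence from MDA-MB-231, a triple-negative human breast cancer line that carries GFP under the Oct4a regulatory region. All cells also carried a stably selected RFP vector with an shRNA, which was scramble in 3 libraries, against CDH2 (N-cadherin, a cell adhesion protein) in 3 and against connexin 43 (Cx43, a gap junction protein) in 2. Of the CDH2 shRNA clones that the study made, a single one picked by Western blot was used, so effects of that clone and of CDH2 loss cannot be told apart. Nothing in the labels gives separate cultures for the replicates, and the p-values measure only the spread between these libraries. The transcripts targeted by the shRNAs were not analysed here.

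Antisense RNAs arise in several ways. Some start beside a coding gene at a promoter that fires in both directions and run away from it. Others start inside or beyond the gene and run back across its exons, where their bases are complementary to the mRNA. A few are known to act on the chromatin or the mRNA of the neighbouring gene, many are short-lived nuclear RNAs, and some host small nucleolar RNAs.

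Levels are given as the deposited log2(CPM + 1), where CPM is the read count of a gene scaled to the total of its library, and a fold change is a difference on that scale, which understates changes of low genes. On GENCODE 44 gene models (hg38), 138 of the 143 RNAs were matched, 118 by their symbol and 20 by an older symbol, and 17 of these are now named as divergent transcripts. GENCODE types 135 of the 138 as long noncoding RNAs, NCBP2-AS2 as protein coding, and EMC3-AS1 and SLC44A3-AS1 as pseudogenes, and all were kept under the naming rule. The exons of 101 overlapped exons of the sense gene on the other strand, 12 overlapped the body of the gene but none of its exons, and 25 did not overlap it. The start sites of 58 lay within 1000 bases of the start of the sense gene. The strand setting of the read counting is not given in the sources used here, so reads of an antisense RNA and of its partner cannot be told apart over shared exon bases. In all, 110 RNAs shared exon bases with an opposite gene, with a median of 8.25% of their exon length over the 138.

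Stretches of hg38 show both arrangements and are printed 5' to 3' on the strand of the antisense RNA. The first pair comes from antisense exons whose RNAs passed the fold thresholds below, and capitals mark the 80 bases that are complementary to a coding exon of the sense gene. The SMARCA5-AS1 stretch is chr4:143514022-143514141 on the minus strand, and that of SLFNL1-AS1 is chr1:41018077-41018196 on the plus strand.
SMARCA5-AS1: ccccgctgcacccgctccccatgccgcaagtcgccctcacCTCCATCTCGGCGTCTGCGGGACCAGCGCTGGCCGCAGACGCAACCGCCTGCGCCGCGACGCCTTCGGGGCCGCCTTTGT
SLFNL1-AS1: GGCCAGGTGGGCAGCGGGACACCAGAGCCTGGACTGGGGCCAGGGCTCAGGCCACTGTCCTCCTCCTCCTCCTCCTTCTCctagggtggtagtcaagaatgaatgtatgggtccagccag

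The next 5 are whole intervals between an antisense RNA and a sense gene that head away from each other, shown because both transcripts can share this DNA as a promoter. They are chr19:52397792-52397848 on the minus strand for ZNF528-AS1, chr11:83071924-83072051 on the plus strand for RAB30-AS1, chr3:67654613-67654668 on the plus strand for SUCLG2-AS1, chr13:113864077-113864111 on the plus strand for GAS6-AS2 and chr21:32393013-32393094 on the plus strand for URB1-AS1. Capitals mark every match, on either strand, to the GC box GGGCGG, the box known as CCAAT, the core CCGGAA of ETS factor sites and the core ACTACA of ZNF143 sites. The motifs do not overlap one another in these letters. The last motif was added after the letters were read.
ZNF528-AS1: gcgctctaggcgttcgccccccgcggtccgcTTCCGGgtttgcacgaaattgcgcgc
RAB30-AS1: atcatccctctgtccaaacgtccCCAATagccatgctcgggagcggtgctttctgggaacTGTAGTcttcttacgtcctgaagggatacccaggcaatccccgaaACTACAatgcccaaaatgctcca
SUCLG2-AS1: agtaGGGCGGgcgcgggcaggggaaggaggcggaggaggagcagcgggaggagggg
GAS6-AS2: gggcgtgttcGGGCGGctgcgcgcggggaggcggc
URB1-AS1: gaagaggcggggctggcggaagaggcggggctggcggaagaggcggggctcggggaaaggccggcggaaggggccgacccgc
The 57 bases beside ZNF528-AS1 held 1 ETS core, which 6.0% of 35116 RefSeq promoter windows of that length also held. The 128 bases beside RAB30-AS1 held 1 CCAAT box, found in 21.3% of windows, and 2 ZNF143 cores, with at least 1 in 4.0%. The intervals of SUCLG2-AS1 and GAS6-AS2 held 1 GC box each, against 21.9% and 12.5% of windows with at least 1. None of the motifs was in the 82 bases beside URB1-AS1.

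**Figure D1:**
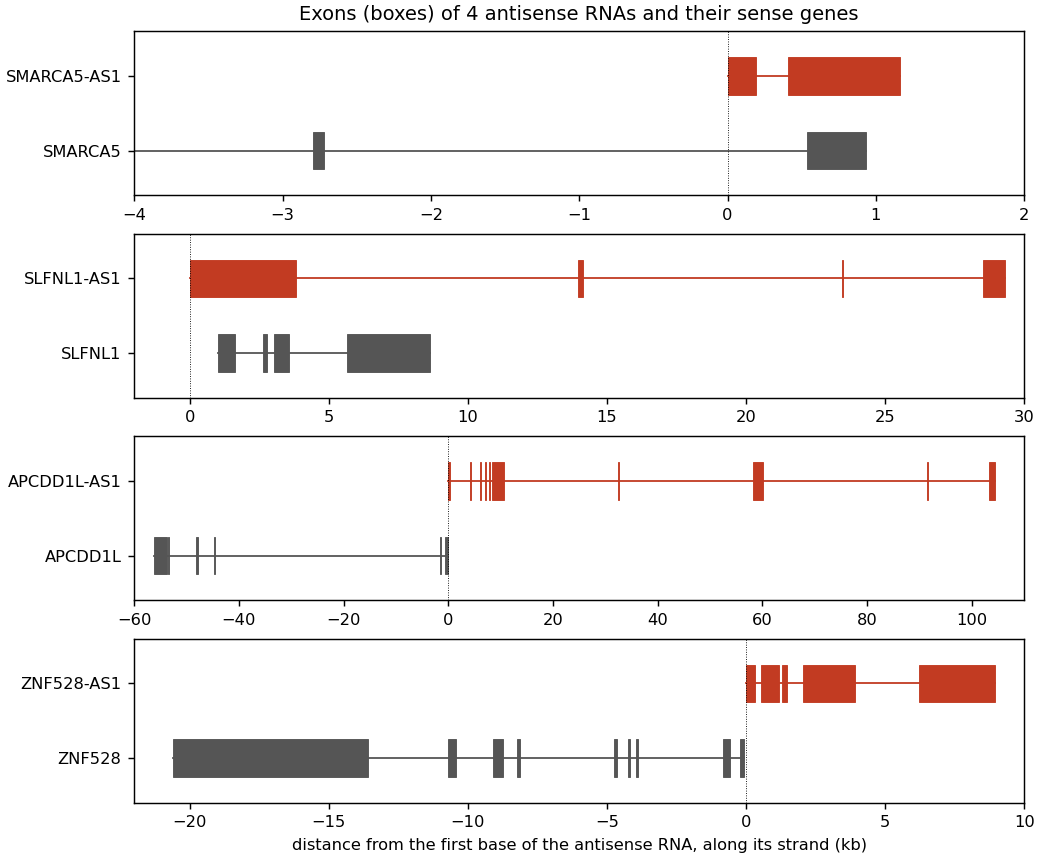
Exons (boxes) and introns (lines) of 4 antisense RNAs in red and their sense genes in grey. The x axis is the distance in kb from the first base of the antisense RNA along its own strand, with a different scale in each panel. SMARCA5-AS1 and SLFNL1-AS1 run across exons of the sense gene, APCDD1L-AS1 shares 21 bases with it, and ZNF528-AS1 shares none.

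Antisense RNAs were low. Their median level over the 8 libraries was 2.49, against 4.70 for all genes and 4.89 for the 119 distinct sense genes, and 31 had a mean level under 2. Together they made up 0.185% to 0.206% of the summed CPM of a library, with the groups overlapping. The highest mean was that of LRRC75A-AS1 (7.91), now named SNHG29 as a host of small nucleolar RNAs. It was followed by FGD5-AS1 (6.65), OIP5-AS1 (6.20), THAP9-AS1 (5.52) and PAX8-AS1 (5.32). GABPB1-AS1 (4.98), PSMA3-AS1 (4.93) and NNT-AS1 (4.91) completed the highest 8. None of these 8 had an adjusted p under 0.05 in any comparison.

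Per length, the sense gene was usually the higher of a pair. Levels per kb of exons could be set for 115 pairs, and in scramble the antisense RNA was above its sense gene in 28. The median log2 ratio of antisense to sense was -1.93 in scramble, -2.06 with CDH2 shRNA and -1.77 with Cx43 shRNA. LRRC75A-AS1 stood highest against its partner, at 28.5 CPM per kb to 1.77 for LRRC75A in scramble. THAP9-AS1 had 9.46 CPM per kb to 0.637 for THAP9, and PAX8-AS1 had 1.83 to 0.721 for PAX8, a transcription factor of thyroid and kidney. At the other end, and named after its values were seen, PCBP1-AS1 had 0.238 CPM per kb to 103 for PCBP1, an abundant poly(C)-binding protein. In 7 pairs the order of the partners differed between groups. ZNF528-AS1 was one of them, with a log2 ratio of 0.30 in scramble, -0.58 with CDH2 shRNA and -0.17 with Cx43 shRNA. Lengths are those of the GENCODE exons, and the gene models used for the counting are not given in the sources used here.

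**Figure D2:**
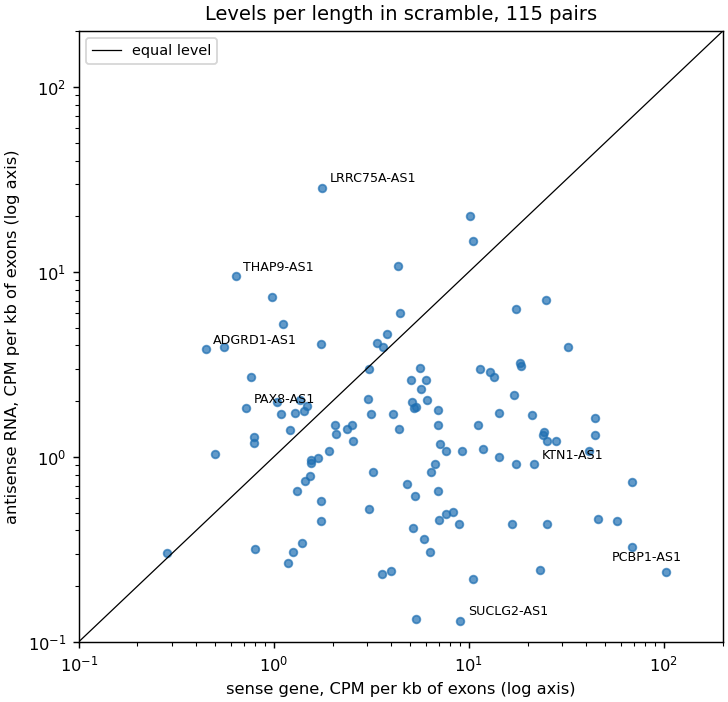
Levels in scramble (mean of 3 libraries, CPM per kb of exons, log axes) of the sense gene (x) and the antisense RNA (y) for 115 pairs, 1 point each. The line marks equal levels, and 28 points lie above it.

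The first comparison asked how the loss of CDH2 changed these RNAs. With CDH2 shRNA, 10 of the 143 antisense RNAs rose and 8 fell at an adjusted p under 0.05, which is 12.6% of them against 14.3% of all genes. The risers included SLFNL1-AS1, SMARCA5-AS1, RBM26-AS1 and MCM3AP-AS1, and the fallers ZSCAN16-AS1, ZBED5-AS1, ZNF528-AS1 and RUSC1-AS1. Past the log2 fold threshold of 0.73 as well were SLFNL1-AS1, higher, and ZSCAN16-AS1, lower, or 2 of 143 against 2.06% of all genes. The median log2 fold change of the 143 was 0.008 and that of all genes 0.007, with 72 RNAs higher and 71 lower. The CDH2 shRNA and scramble libraries did not overlap for 72 antisense RNAs (50.4%), against 51.9% of all genes. A refit with fewer residual degrees of freedom, described next, kept 2 of the 143 at an adjusted p under 0.05, against 2.29% of all genes.

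The calls in both knockdowns changed when single libraries were left out. Leaving out a library also takes away residual degrees of freedom, so these refits do not show which library carried a change. Replicate 3 has no Cx43 shRNA library, so leaving out either of its libraries takes both out of the comparison. No antisense RNA had an adjusted p under 0.05 against scramble without CDH2 shRNA replicate 1, CDH2 shRNA replicate 2, either Cx43 shRNA library or scramble replicate 1. Without replicate 3 of CDH2 shRNA or of scramble, 50 of 143 passed in the CDH2 comparison, against 41% of all genes. In the Cx43 comparison 24 passed, against 16.5%. Without scramble replicate 2 there were 16, against 12.1%, and 4, against 3.62%. In the refits without, in turn, CDH2 shRNA replicate 1, CDH2 shRNA replicate 2 and scramble replicate 1, 0, 0 and 10 genes passed with CDH2 shRNA. With Cx43 shRNA these were 5, 0 and 1 genes. The residuals varied in 2 of the 3 directions left by the groups and replicate numbers. Scramble replicate 1 lay at the mean of its group for ZSCAN16-AS1 (1.97) and COX10-AS1 (1.93), for example. The main fit counted all 3 directions, so it can understate the spread and pass too many genes. When the remaining direction was also fitted, SLFNL1-AS1 (adjusted p = 0.0321) and ZSCAN16-AS1 (adjusted p = 0.03) passed 0.05 with CDH2 shRNA. With Cx43 shRNA SMARCA5-AS1 (adjusted p = 0.0459) did, and no other antisense RNA passed in either. Of all genes, 2.29% passed with CDH2 shRNA and 0.634% with Cx43 shRNA in that fit. Mitochondrial mRNAs moved with the groups, at 0.594% to 1.01% of the summed CPM in scramble, 1.16% to 2.03% with CDH2 shRNA and 1.25% to 2.36% with Cx43 shRNA, and their part in these results was not tested. VIM, CD44, AXL, CAV1, MSN, EGFR and FOSL1, the 7 mesenchymal markers, lay between 6.35 and 9.81 in every library, while 2 of 8 epithelial markers (KRT8 and EPCAM), 2 of 6 fibroblast markers (COL1A1, 2.50 to 4.33, and PDGFRB) and 1 of 6 haematopoietic markers (CD68, 3.76 to 4.49) had a row. PDGFRB was at 5.43 to 5.73 in scramble and 4.70 to 5.10 in the knockdown libraries, and KRT8 at 8.35 to 8.61 and 7.99 to 8.29. EPCAM was at 2.59 to 2.66 in scramble, 2.21 to 2.29 with CDH2 shRNA and 2.72 to 2.75 with Cx43 shRNA. The part of these shifts in the results was not tested.

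SLFNL1-AS1 lies at chr1:41014590-41043890 on the plus strand and runs across SLFNL1, a schlafen-like gene. Its level was 1.28, 1.36 and 1.25 in scramble, 2.05, 2.36 and 2.27 with CDH2 shRNA and 1.87 and 1.48 with Cx43 shRNA. All CDH2 shRNA libraries were above all others, and both Cx43 shRNA libraries were above scramble. The log2 fold change was 0.93 ± 0.14 (SE, adjusted p = 0.0225) with CDH2 shRNA and 0.37 ± 0.17 (adjusted p = 0.264) with Cx43 shRNA. SLFNL1 itself had 1.13, 1.11 and 1.20 in scramble, 1.61, 2.06 and 1.76 with CDH2 shRNA, and 1.35 and 0.92 with Cx43 shRNA, a log2 fold change of 0.66 ± 0.17 (adjusted p = 0.0529) for CDH2 shRNA. The pair shares 1306 exon bases, 27.2% of the exon length of SLFNL1-AS1.

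ZSCAN16-AS1 (chr6:28015122-28137313, minus strand) lies opposite ZSCAN16, which encodes a zinc finger protein with a SCAN domain. It was at 1.97, 2.06 and 1.88 in scramble, 1.13, 1.07 and 1.23 with CDH2 shRNA and 1.51 and 1.48 with Cx43 shRNA. The groups did not overlap, with CDH2 shRNA lowest and Cx43 shRNA between it and scramble. The log2 fold change was -0.83 ± 0.09 (adjusted p = 0.0182) with CDH2 shRNA and -0.47 ± 0.11 (adjusted p = 0.0975) with Cx43 shRNA. ZSCAN16 ranged from 1.72 to 2.13 over the 8 libraries, with a log2 fold change of 0.04 ± 0.12 (adjusted p = 0.833) in the CDH2 comparison. The pair shares 3.0% of the exon length of ZSCAN16-AS1.

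ZBED5-AS1 and RUSC1-AS1 fell with CDH2 shRNA, and the values of their partners were within 1 SE of 0. ZBED5-AS1 had 3.97, 3.95 and 4.01 in scramble, 3.28, 3.42 and 3.30 with CDH2 shRNA and 3.39 and 3.27 with Cx43 shRNA. Its log2 fold changes were alike, at -0.64 ± 0.09 (adjusted p = 0.0209) with CDH2 shRNA and -0.65 ± 0.10 (adjusted p = 0.0517) with Cx43 shRNA. ZBED5, a gene derived from a transposase, had 0.003 ± 0.09 and -0.03 ± 0.11. RUSC1-AS1 lay lowest in the CDH2 shRNA libraries, at 2.48, 2.46 and 2.57 against 3.02, 3.09 and 2.96 in scramble and 3.01 and 2.96 with Cx43 shRNA. Its log2 fold change was -0.52 ± 0.08 (adjusted p = 0.0242) with CDH2 shRNA and -0.04 ± 0.10 (adjusted p = 0.843) with Cx43 shRNA, and the direct difference of the knockdowns was -0.48 ± 0.10 (adjusted p = 0.124). RUSC1, which encodes an adaptor with RUN and SH3 domains, had 0.06 ± 0.12 with CDH2 shRNA.

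ZNF528-AS1 (chr19:52388836-52397791, minus strand) starts beside ZNF528, a zinc finger gene, and runs away from it, and the 57 bases printed above lie between the genes. Its level was 4.64, 4.76 and 4.53 in scramble, 4.02, 3.98 and 4.17 with CDH2 shRNA, and 4.33 and 4.25 with Cx43 shRNA. ZNF528 lay the other way, at 4.89, 4.87 and 4.92 in scramble, 5.13, 5.19 and 5.12 with CDH2 shRNA and 5.00 and 4.97 with Cx43 shRNA. Neither partner's CDH2 shRNA libraries overlapped scramble. The log2 fold change with CDH2 shRNA was -0.58 ± 0.10 (adjusted p = 0.0285) for the antisense RNA and 0.25 ± 0.07 (adjusted p = 0.0687) for ZNF528. The pair shares no exon bases.

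MCM3AP-AS1 was the only antisense RNA that passed an adjusted p of 0.05 together with its sense gene in that comparison. It had 2.55, 2.57 and 2.56 in scramble, 3.02, 3.16 and 3.10 with CDH2 shRNA and 2.94 and 2.78 with Cx43 shRNA, which is 0.53 ± 0.09 (adjusted p = 0.0251) for CDH2 shRNA. MCM3AP, a scaffold of mRNA export, had 6.21, 6.16 and 6.27 in scramble, 6.58, 6.64 and 6.53 with CDH2 shRNA and 6.57 and 6.56 with Cx43 shRNA, or 0.37 ± 0.08 (adjusted p = 0.0391). Every knockdown library of both partners was above every scramble library. They share 1752 exon bases, 17.5% of the antisense exons.

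Besides these and SMARCA5-AS1 below, the risers with CDH2 shRNA ran from 0.35 to 0.54 on the log2 scale. RBM26-AS1 was highest (0.54 ± 0.11, adjusted p = 0.0349), beside RBM26, an RNA-binding protein gene that had 0.32 ± 0.10 (adjusted p = 0.0737). ENTPD1-AS1, opposite the gene of the ectonucleotidase CD39, rose by 0.47 ± 0.08 (adjusted p = 0.0269) and had 0.52 ± 0.10 (adjusted p = 0.0676) with Cx43 shRNA. ADGRD1-AS1, opposite an adhesion G protein-coupled receptor gene, rose by 0.45 ± 0.08 (adjusted p = 0.0312) while ADGRD1 had 0.07 ± 0.09. TMEM147-AS1 (0.44 ± 0.09), KTN1-AS1 (0.37 ± 0.07), PPP1R26-AS1 (0.36 ± 0.08) and CTBP1-AS2 (0.35 ± 0.07) also rose. The partners of TMEM147-AS1, KTN1-AS1 and CTBP1-AS2 had negative values that did not pass, at -0.11 ± 0.15 for TMEM147, -0.17 ± 0.07 for KTN1, a kinesin receptor, and -0.10 ± 0.09 for CTBP1, a transcriptional corepressor.

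Among the other fallers with CDH2 shRNA, TNRC6C-AS1 had -0.42 ± 0.10 (adjusted p = 0.0452) and APCDD1L-AS1 -0.41 ± 0.08 (adjusted p = 0.0334). WAC-AS1 had -0.35 ± 0.08 (adjusted p = 0.0413) and BAIAP2-AS1, outside the naming rule, -0.37 ± 0.09 (adjusted p = 0.0496). TNRC6C, a gene of microRNA silencing, had 0.20 ± 0.08, and WAC, an adaptor of histone H2B ubiquitination, 0.24 ± 0.07, neither past 0.05.

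**Figure D3:**
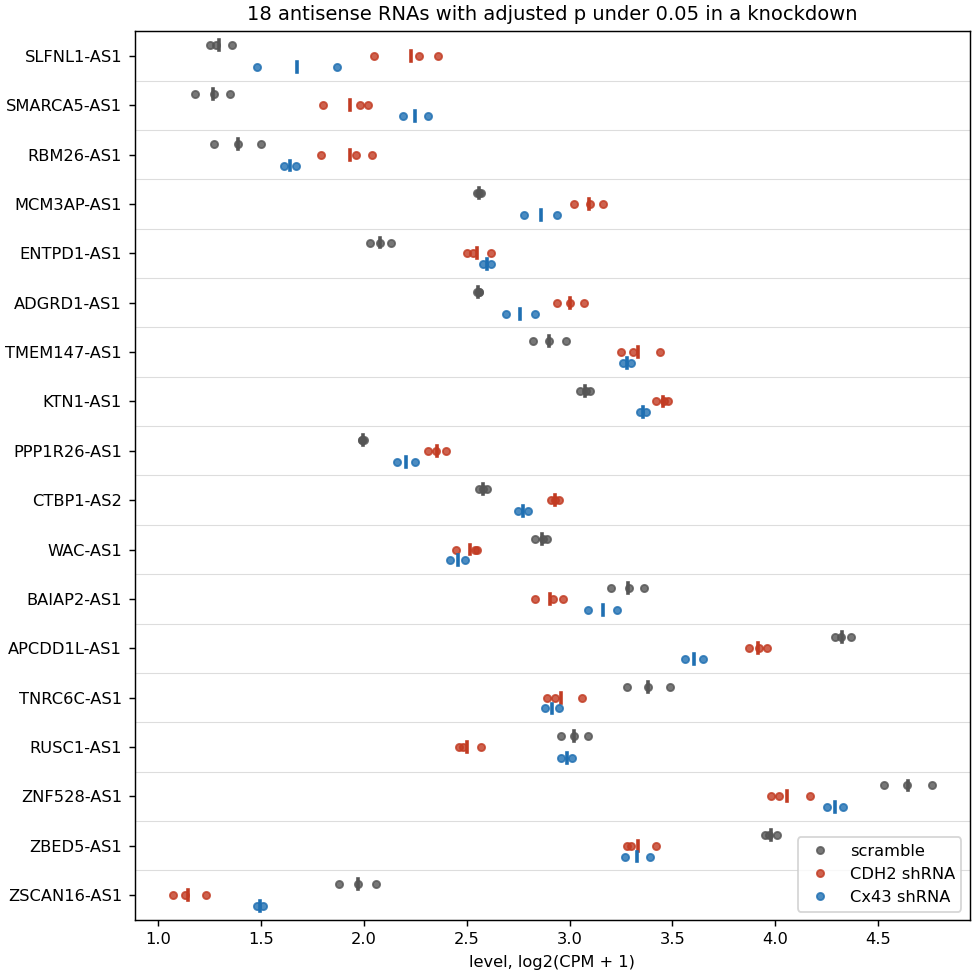
Level in each library (x, log2(CPM + 1)) of the 18 antisense RNAs with an adjusted p under 0.05 in the CDH2 comparison, SMARCA5-AS1 and APCDD1L-AS1 also in the Cx43 comparison. Points are libraries, short bars are group means, and rows are ordered by the change with CDH2 shRNA. The scramble and CDH2 shRNA points do not overlap in any row.

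The second comparison asked the same of Cx43. With Cx43 shRNA, 1 antisense RNA rose and 1 fell at an adjusted p under 0.05, or 1.40% of the 143 against 1.21% of all genes. Both also passed the log2 fold threshold of 0.58, against 1.18% of all genes. They were SMARCA5-AS1, higher, and APCDD1L-AS1, lower. The median log2 fold change was 0.011 for the antisense RNAs and 0.043 for all genes, with 75 RNAs higher and 68 lower. For 73 of them (51.0%) the Cx43 shRNA and scramble libraries did not overlap, against 52.8% of all genes. The comparison shares its scramble libraries with the CDH2 comparison and has 2 knockdown libraries.

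SMARCA5-AS1 (chr4:143513472-143514635, minus strand) covers the first exon of SMARCA5, the ATPase of ISWI chromatin remodelling complexes, on the other strand. Its level was 1.27, 1.35 and 1.18 in scramble, 1.98, 1.80 and 2.02 with CDH2 shRNA, and 2.19 and 2.31 with Cx43 shRNA. The groups did not overlap, with scramble lowest and Cx43 shRNA highest. Its log2 fold change was 0.98 ± 0.12 (adjusted p = 0.0375) with Cx43 shRNA and 0.67 ± 0.10 (adjusted p = 0.0232) with CDH2 shRNA, and the knockdowns differed by -0.32 ± 0.12 (adjusted p = 0.232). SMARCA5 ranged from 6.44 to 6.83, with 0.18 ± 0.11 (adjusted p = 0.395) for Cx43 shRNA. The pair shares 400 exon bases, 42.3% of the antisense exons, and per kb SMARCA5 was the higher at 11.2 CPM to 1.49 in scramble.

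APCDD1L-AS1, now APCDD1L-DT, starts head to head with APCDD1L, a relative of the Wnt inhibitor gene APCDD1, at chr20:58515379-58619888 on the plus strand. It had 4.32, 4.37 and 4.29 in scramble, 3.87, 3.92 and 3.96 with CDH2 shRNA and 3.65 and 3.56 with Cx43 shRNA. Again the groups did not overlap, here with Cx43 shRNA lowest. The log2 fold change was -0.72 ± 0.09 (adjusted p = 0.0375) with Cx43 shRNA. APCDD1L had 5.78, 5.71 and 5.86 in scramble, 5.39, 5.57 and 5.36 with CDH2 shRNA and 5.56 and 5.46 with Cx43 shRNA. Its knockdown libraries were all below scramble, with -0.34 ± 0.10 (adjusted p = 0.0679) for CDH2 shRNA and -0.28 ± 0.12 (adjusted p = 0.242) for Cx43 shRNA.

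Several larger values did not pass the test. COX10-AS1, beside the gene of a heme A synthesis enzyme, had 0.79 ± 0.23 (adjusted p = 0.143) with Cx43 shRNA and 0.72 ± 0.20 (adjusted p = 0.0631) with CDH2 shRNA. Its scramble libraries spread widely, at 1.93, 1.64 and 2.22, all below the lowest knockdown library at 2.37. SUCLG2-AS1, beside the gene of a succinyl-CoA ligase subunit, had 0.58 ± 0.15 (adjusted p = 0.114) and 0.47 ± 0.13 (adjusted p = 0.0603) in the same order. UCKL1-AS1 had -0.62 ± 0.26 (adjusted p = 0.243) with Cx43 shRNA, at 1.91 and 1.43 against 2.28, 2.58 and 2.02 in scramble. RAB30-AS1, beside a Golgi GTPase gene, had -0.58 ± 0.23 (adjusted p = 0.217) with Cx43 shRNA and -0.55 ± 0.19 (adjusted p = 0.10) with CDH2 shRNA.

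Further Cx43 values between 0.41 and 0.42 came from FGD5-AS1 (0.42 ± 0.11), PAXIP1-AS1 (0.42 ± 0.11), ZFHX2-AS1 (0.42 ± 0.18) and GAS6-AS2 (0.41 ± 0.17), none past 0.05. FGD5-AS1 was at 6.47, 6.37 and 6.56 in scramble and 6.86 and 6.91 with Cx43 shRNA. DBH-AS1 (-0.45 ± 0.20) lay at 1.38 and 1.64 with Cx43 shRNA against 1.73 to 2.17 in scramble. With CDH2 shRNA, TSPEAR-AS2 (0.45 ± 0.15), PRR34-AS1 (-0.49 ± 0.17) and VASH1-AS1 (-0.42 ± 0.15), opposite the gene of a tubulin carboxypeptidase, were separated from scramble without passing 0.05.

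The third comparison set the 2 knockdowns against each other. No antisense RNA and no other gene reached an adjusted p of 0.05 with limma, which is 0% of the genes tested. Without replicate 3 of CDH2 shRNA or of scramble, 16 antisense RNAs and 2131 genes in all did, without scramble replicate 2 there were 6 and 865, and with only these 2 groups fitted 2 and 559. At an unadjusted p under 0.05 in all libraries there were 25 antisense RNAs (17.5%), against 20.0% of all genes. GAS6-AS2 had one of the lower values, -0.54 ± 0.17 (adjusted p = 0.185), at 2.09, 2.14 and 1.82 with CDH2 shRNA and 2.48 and 2.64 with Cx43 shRNA. GAS6, a ligand of the receptor AXL, had -0.43 ± 0.09 (adjusted p = 0.124), at 6.20, 6.14 and 6.15 with CDH2 shRNA and 6.55 and 6.63 with Cx43 shRNA. For both partners all CDH2 shRNA libraries were below both Cx43 shRNA libraries, and the 35 bases between them were printed above.

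Same and opposite signs were both common among the pairs. With CDH2 shRNA, 51 of the 120 pairs had the same sign and 69 the opposite, and Pearson's r of the log2 fold changes across pairs was 0.04. With Cx43 shRNA, 69 had the same sign and r was 0.17. Pairs share libraries and some share reads, so both are descriptions. Of the 17 antisense RNAs with a partner row and an adjusted p under 0.05 with CDH2 shRNA, 8 had the sign of the partner. Where over 25% of the antisense exons were shared, 10 of 19 pairs had the same sign with CDH2 shRNA (r = 0.37), and where none were shared 13 of 32 (r = -0.02). For Cx43 shRNA these were 11 of 19 (r = 0.23) and 16 of 32 (r = 0.18).

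**Figure D4:**
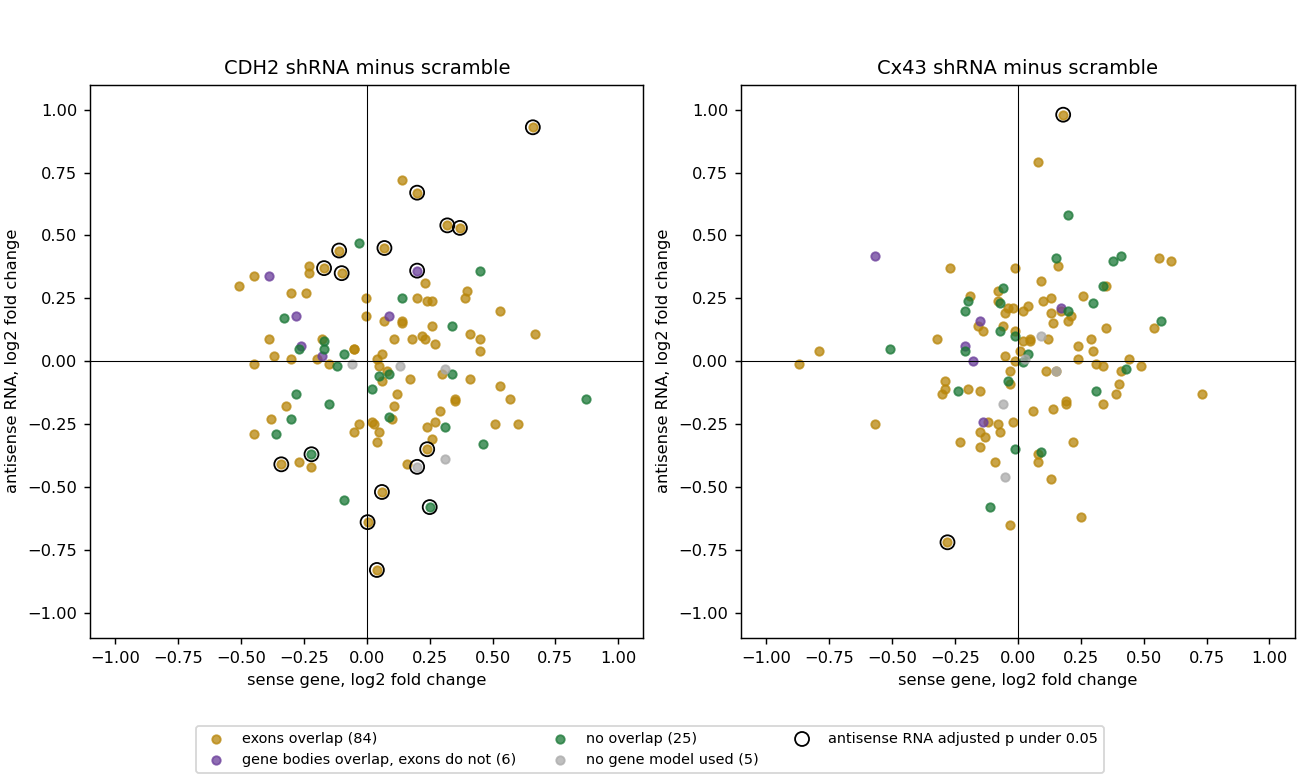
Log2 fold change of the sense gene (x) and the antisense RNA (y) for 120 pairs, with CDH2 shRNA on the left and Cx43 shRNA on the right. Colours give the arrangement of the pair and circles the antisense RNAs with an adjusted p under 0.05, and the points show no diagonal.

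Of the 119 sense genes, 8 rose and 4 fell with CDH2 shRNA at an adjusted p under 0.05 (10.1%, against 14.3% of all genes), and with Cx43 shRNA 1 fell (0.84% against 1.21%), so sense genes as a group did not pass more often than all genes. URB1, which encodes a factor of ribosome assembly, was past the fold threshold with CDH2 shRNA, at 6.82, 7.0 and 6.88 against 6.03, 6.02 and 6.06 in scramble (0.87 ± 0.09, adjusted p = 0.0167). URB1-AS1, whose start lies 83 bases from that of URB1, had -0.15 ± 0.12 (adjusted p = 0.418). TMPO, a nuclear lamina protein gene, rose by 0.53 ± 0.08 (adjusted p = 0.0209) and NUP50, a nuclear pore gene, by 0.46 ± 0.08 (adjusted p = 0.0253), while TMPO-AS1 had -0.10 and NUP50-AS1 -0.33, neither past 0.05. HLA-F, a class I HLA gene, had -0.51 ± 0.08 (adjusted p = 0.0246) and HLA-F-AS1 0.30. These pairs were named after their values were seen. PAXIP1, a DNA damage response gene, rose by 0.45 ± 0.08 (adjusted p = 0.0301) and PAXIP1-AS1 had 0.36 ± 0.09 (adjusted p = 0.0547), with starts 297 bases apart. With Cx43 shRNA, MAP3K14, the kinase NIK and the only sense gene past both thresholds, had 5.80 and 5.61 against 6.57, 6.64 and 6.52 in scramble (-0.87 ± 0.11, adjusted p = 0.0375), and MAP3K14-AS1 had -0.01.

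By arrangement, a grouping looked at after the values were seen, the 25 antisense RNAs that do not overlap their sense gene had the lowest median in the direct comparison. Their median was -0.23 between CDH2 and Cx43 shRNA, with 20 of 25 lower. For all genes it was -0.030, with 7096 of 12939 lower. Against scramble the median of these 25 was -0.061 with CDH2 shRNA and 0.12 with Cx43 shRNA. The direct median was -0.11 without Cx43 shRNA replicate 2, with 15 of 25 lower, and -0.15 without CDH2 shRNA replicate 2. The 101 RNAs with overlapping exons had medians of 0.014, -0.007 and 0.032 in the CDH2, Cx43 and direct comparisons. The 12 that overlap the gene body but none of its exons had 0.12, 0.017 and 0.12. At an adjusted p under 0.05 with CDH2 shRNA were 14 of 101 (13.9%), 1 of 12 (8.33%) and 2 of 25 (8.0%), none of these overlap classes above the 14.3% of all genes. Split by start site instead, 11 of the 58 RNAs starting within 1000 bases of the sense gene's start passed with CDH2 shRNA. That is 19.0%, above the 14.3% of all genes, while 6 of the 80 with starts farther apart passed. With Cx43 shRNA 2 of 58 and 0 of 80 passed. With the remaining residual direction fitted, SLFNL1-AS1 and ZSCAN16-AS1, the 2 that passed with CDH2 shRNA, both had starts farther apart. SMARCA5-AS1, the 1 that passed with Cx43 shRNA in that fit, starts within 1000 bases. The higher share near the start with CDH2 shRNA was thus not seen in that fit. The difference between these start classes was not tested.

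**Figure D5:**
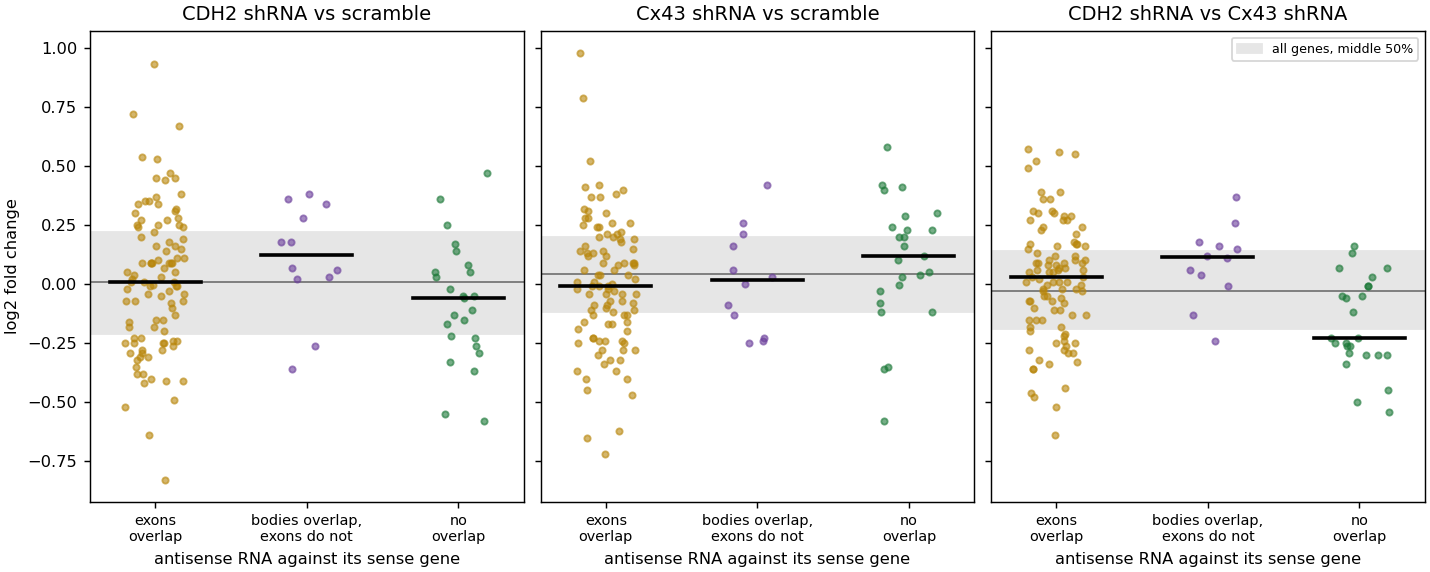
Log2 fold change (y) of each antisense RNA in the 3 comparisons, grouped by its arrangement with the sense gene (x). Bars are group medians, the grey band holds the middle 50% of all genes and the grey line their median. In the right panel the 25 RNAs without overlap have a median of -0.23 against -0.030 for all genes.

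Neighbouring classes and pathways were counted in the same fits, where 14.3% of all genes had an adjusted p under 0.05 with CDH2 shRNA and 1.21% with Cx43 shRNA. Of 72 LINC RNAs, which lie between genes, 12 (16.7%) had an adjusted p under 0.05 with CDH2 shRNA and 2 (2.78%) with Cx43 shRNA. Of 27 hosts of small nucleolar RNAs and microRNAs there were 3 (11.1%) and 1 (3.70%). Among 26 genes of the nuclear exosome and its adaptors, which degrade short-lived nuclear RNAs, 1 fell with CDH2 shRNA, and among 25 of Integrator and early termination 1 rose. Of 21 genes that sense or edit double-stranded RNA, 4 (19.0%) rose and none fell with CDH2 shRNA, and none passed with Cx43 shRNA, where at an unadjusted p under 0.05 there were 5 (23.8%, against 21.6% of all genes). Antisense RNAs beside EMT, adhesion and matrix genes numbered 7 and those beside immune genes 6, with none past 0.05 in either comparison with limma and, at an unadjusted p under 0.05 with CDH2 shRNA, 1 and 3, against 37.5% of all genes. A list of antisense RNAs beside cell cycle, replication and repair genes, which does not hold those of PAXIP1, had 2 rows, MCM3AP-AS1, which rose with CDH2 shRNA, and OIP5-AS1 (0.16 ± 0.10). MCM3AP is on it for its partner MCM3 in replication.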

How the data were processed

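The deposited values are log2(CPM + 1). Per the methods, the authors aligned reads of rRNA-depleted libraries to hg38 with STAR (2.6.1 in the submitters' processing notes) in Partek Flow, quantified genes by expectation maximization, left out 1 low-quality sample, took logs after adding 1 to the CPM, corrected for sequencing replicates and dropped low genes. The gene annotation and strand setting are not given in the sources used here. Back-transformed values of a library summed to between 684411 and 727083. The files hold no counts, so depth is unknown and the number of libraries sets the precision. A line with no gene name was left out.

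Members and lists were chosen with earlier results of these data known. All 8 libraries were fitted with limma 3.58.1 in R 4.3.3 (lmFit, eBayes) by group with the replicate number as a block, with 3 residual degrees of freedom and a prior of 2.84. The block follows the authors' correction. Naming styles of the file headers match the replicate numbers, and deviations from group means sum to 0 within each number (at most 1e-04), so their correlation gives no independent check of the pairing. P-values are two-sided and Benjamini-Hochberg adjusted over 12939 genes. The script was tested on simulated data with independent noise. Residuals of such noise vary in all 3 directions and those of the real libraries in 2, so that test does not check the calls given here. The fold thresholds were those of the methods, 0.73 (CDH2) and 0.58 (Cx43, and here the direct comparison) on the log2 scale.

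Named RNAs are those with an adjusted p under 0.05 (the 15 smallest), the 8 largest rises and falls per knockdown where libraries did not overlap scramble, the 8 highest means, and their sense genes. Gene models are GENCODE 44, and promoter windows are the bases just before RefSeq starts (hg38). Means, ratios and figures were made in Python 3.11.15 with pandas 2.3.3 and matplotlib 3.10.9.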

Additional observations from a re-analysis of the deposited data

How the results depend on the processing

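The calls rest on few libraries and on how the residual spread was estimated. For antisense RNAs past both thresholds (2 with CDH2 shRNA, 2 with Cx43 shRNA and 0 in the direct comparison), leaving out 1 library at a time gave 0 to 4, 0 to 7 and 0 to 3. For sense genes (1, 1 and 0) it gave 0 to 4, 0 to 8 and 0 to 4. The share of all genes at an adjusted p under 0.05 with CDH2 shRNA also moved in these refits, between 0% and 41%. The share of all genes past both thresholds is not given here for any refit, so such counts show nothing particular to antisense RNAs. Without the replicate block the counts were 2, 4 and 0 for antisense RNAs and 1, 4 and 3 for sense genes, and with only the 2 groups compared they were 0, 7 and 1, and 0, 8 and 2. At an adjusted p under 0.05 alone, 52, 32 and 28 of the 143 passed without the block, against 43.3%, 24.3% and 21.5% of all genes. With only the 2 groups compared, 0, 35 and 2 passed, against 0%, 21.7% and 4.32% of all genes. In that fit more genes thus passed with Cx43 shRNA than with CDH2 shRNA, the reverse of the main fit. The fit with the remaining residual direction, added after seeing the data, gave 1 antisense RNA and 0 sense genes for Cx43 shRNA. Quantile normalization and a pseudocount of 0.1 each gave 4 antisense RNAs for CDH2 shRNA. Among the 75% of genes with the highest means, which hold 28 of the 143 RNAs, 0 antisense RNAs passed in either knockdown and 0 sense genes for Cx43 shRNA. With no fold threshold, 18 antisense RNAs and 12 sense genes passed for CDH2 shRNA, and at an adjusted p under 0.1, 4 sense genes for Cx43 shRNA. Among antisense RNAs sharing no exon bases with an opposite gene, 0 passed in either knockdown, and 0 of their sense genes for Cx43 shRNA.

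The median log2 fold change of antisense RNAs ranged over single libraries left out from -0.065 to 0.063 (CDH2 shRNA), -0.003 to 0.061 (Cx43 shRNA) and -0.021 to 0.037 (direct). It was 0.048 for CDH2 shRNA after quantile normalization, 0.072 for Cx43 shRNA and -0.076 in the direct comparison among the higher genes, and -0.035, 0.14 and -0.095 among RNAs sharing no exon bases. Pairs with the same sign ranged over libraries left out from 51 to 64, 56 to 75 and 59 to 70, and were 8, 12 and 9 among the higher genes, where fewer pairs remain. RNAs whose libraries did not overlap scramble ranged from 72 to 94 (CDH2 shRNA) and 73 to 103 (Cx43 shRNA). Leaving out a library can only keep or raise this count, so the lower ends are those of all libraries. The share over all genes in these refits is not given here, so the ranges show nothing particular to antisense RNAs. There were 15 and 16 such RNAs among the higher genes and 15 and 15 without shared exon bases. None of the 20 changes with an adjusted p under 0.05 (18 with CDH2 shRNA and 2 with Cx43 shRNA) reversed its sign in the 16 refits, of which that of the higher genes held 4. They were picked by adjusted p in these data, so a kept sign was likely beforehand. All 20 no longer passed without CDH2 shRNA replicate 1, CDH2 shRNA replicate 2 or scramble replicate 1. With only the 2 groups compared 18 did not pass, and with the remaining residual direction fitted 17 did not. Other named RNAs were not followed singly.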
